A study of Mus musculus with 10 samples.

Results

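The genes described here are 40 members of the guidance systems that steer axons and migrating cells: 10 Eph receptors, 8 ephrins, 7 semaphorins, 7 plexins and neuropilins, 5 Slits and Robos, and netrin-1 with the receptors Dcc and Unc5c. They were taken by gene symbol from a list, and each gene was read on its brightest probe set by mean over all 10 arrays. Of the 40 members, 35 had a probe set under their symbol (59 probe sets in all), out of 12393 genes with a probe set of their own symbol. Ephb1, Ephb2, Sema3d, Sema4c and Robo2 were not analysed here. The tested embryos were Fbln1-null, homozygous for a gene trap insertion in Fbln1 (5 arrays, replicates 3, 4, 5, 7 and 8), and the controls were wildtype embryos (5 arrays, replicates 1 to 5). Both came from matings of heterozygous carriers and were taken at E10.5. Tissue that held the hindbrain together with pharyngeal arches 1 to 4 was microdissected and hybridised to Affymetrix arrays. The trap is carried by every cell of the embryo. The genetic background, the litters and the sex of the embryos were not given in the sources used here.

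Guidance cues act by attraction and repulsion at cell surfaces. Ephrins are membrane-bound ligands of Eph receptor tyrosine kinases, and in the hindbrain their contact-dependent repulsion keeps cells of neighbouring rhombomeres apart and keeps streams of neural crest separate on the way to the arches. Class 3 semaphorins are secreted repellents that signal through plexins with neuropilins as co-receptors, and they shape crest streams, cranial nerves and arch arteries. Slits, secreted at the ventral midline, repel Robo-bearing axons, while netrin-1 attracts axons through Dcc and repels them through Unc5 receptors. Fibulin-1, the product of Fbln1, is a secreted glycoprotein of the extracellular matrix.

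Fbln1 signal separated the genotypes, with 2.52, 2.60, 2.62, 2.72 and 2.85 in null arrays against 4.93, 5.11, 3.83, 4.47 and 4.40 in wildtype arrays (log2). The values are log2 signals made with GCRMA, in which dim probe sets are pulled to a floor, for many of them a little above log2 2. Probes differ in affinity, so a gap between the levels of different probe sets does not measure a difference in abundance, and only changes of such gaps between genotypes are compared. A probe set was tested when it exceeded log2 4 on at least 5 of the 10 arrays, which left 9801 probe sets for 5912 genes. Markers of the labelled tissue were present, with 14 of 16 neuronal, 12 of 14 neural progenitor and 11 of 15 crest and arch mesenchyme genes over that filter. Wildtype replicate 4 stood apart with an Xist signal of 9.68 and an Eif2s3y signal of 2.70, against at most 3.36 and at least 8.96 on the other arrays. By these signals it was the 1 female-type array, and the other 9, with all null arrays among them, were male-type. Wildtype replicates 1 and 2 formed the closest pair of arrays (correlation 0.996 across probe sets). Both lay above wildtype replicates 3 to 5 for 21.7% of genes and below them for 15.9%. With 5 arrays a genotype the precision of all values is limited.

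No guidance gene changed past the threshold in null tissue. Of the 12 members over the filter, 0 had a limma adjusted p under 0.05 in either direction, where 0.0338% of all genes did (2 of 5912, both lower, on 0.0204% of the probe sets tested). At an unadjusted limma p of 0.05 the count was also 0 of 12, beside 12.8% of all genes (3.84% higher and 9% lower). Genotypes did not overlap for 0 of the 12, beside 2.88% of all genes. Means were higher in null tissue for 4 members and lower for 8, and the median log2 fold change (null minus wildtype) was -0.09, against -0.04 over all genes, of which 56.9% had a lower mean. Neither the count nor the sign of the median was stable, since without wildtype replicates 1 and 2 the means were higher for 7 members and lower for 5, with a median of 0.076. The choice to leave out both of these arrays was made with earlier results of the data known. The 95% intervals of all 12 fold changes lay within 1 log2 unit either way, while 2, those of Nrp1 and Nrp2, lay within 0.5. The median spread between embryos of one genotype was 0.42 log2 units (SD) for these members and 0.27 over all genes. In whole tissue, fewer cells of a type and less RNA per cell cannot be told apart.

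**Figure D1:**
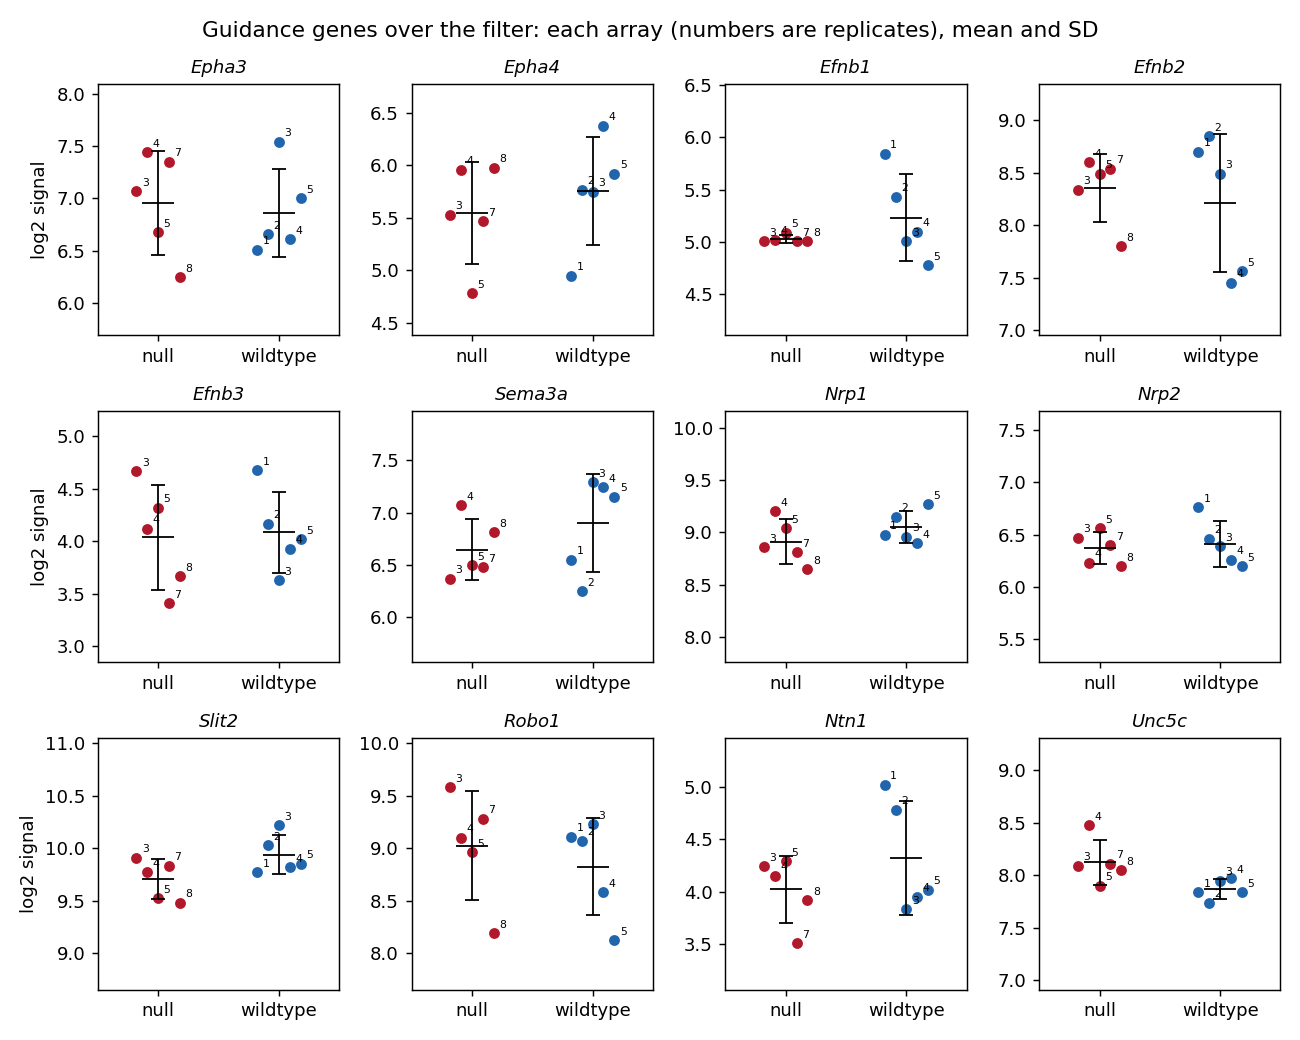
Log2 signal (y axis, of equal span in every panel) of the 12 guidance genes over the filter in null (left, red) and wildtype (right, blue) arrays, with replicate numbers, mean and SD (n = 5 each). In every panel the genotypes overlap, and wildtype replicates 1 and 2 lie above replicates 3 to 5 for Efnb1, Efnb2, Efnb3, Nrp2 and Ntn1.

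Eph receptors were represented over the filter by Epha3 and Epha4. Epha3, a receptor of A-type ephrins, had log2 signals of 7.07, 7.44, 6.68, 7.35 and 6.25 in null replicates 3, 4, 5, 7 and 8, against 6.51, 6.66, 7.54, 6.61 and 7.0 in wildtype replicates 1 to 5. The wildtype values lay within 6.51 to 7.54 and null replicate 8 fell below them, and the log2 fold change was 0.09 (95% interval -0.45 to 0.64, limma adjusted p = 0.916). Epha4, which binds ephrins of both types and marks rhombomeres 3 and 5, had 5.53, 5.96, 4.78, 5.47 and 5.98 in null arrays, against 4.95, 5.77, 5.75, 6.38 and 5.92 in wildtype arrays. A low array occurred in each genotype, null replicate 5 and wildtype replicate 1, and the log2 fold change was -0.21 (95% interval -0.80 to 0.38, limma adjusted p = 0.811). With the ratio of actin control probes as a covariate it was 0.22, without null replicate 5 it was -0.02 and without wildtype replicate 1 it was -0.41.

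Ephrins over the filter were the 3 transmembrane B-type ligands, which signal in both directions across a cell contact. Efnb1, needed in neural crest for craniofacial development, had 5.01, 5.02, 5.09, 5.01 and 5.01 in null arrays, against 5.84, 5.43, 5.01, 5.10 and 4.78 in wildtype arrays. The null arrays sat between 5.01 and 5.09, while the wildtype arrays spread over both sides of them. Null replicates 3, 4, 7 and 8 and wildtype replicate 3 all read 5.01 to 5.02. Such repeats can mark a floor of this probe set, so a change could be compressed. The log2 fold change was -0.20 (95% interval -0.59 to 0.18, limma adjusted p = 0.687). With single arrays left out it lay between -0.32 and -0.05, and without both wildtype replicates 1 and 2 it was 0.06. Efnb3, a midline repellent of corticospinal axons, had 4.67, 4.12, 4.32, 3.41 and 3.67 in null arrays, against 4.68, 4.17, 3.63, 3.93 and 4.02 in wildtype arrays. These values straddle the filter, so a change could be compressed, and the log2 fold change of -0.05 (95% interval -0.59 to 0.49) had a limma adjusted p of 0.965. It was 0.18 without wildtype replicates 1 and 2.

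Efnb2, a ligand of EphB4 and EphA4 with roles in crest migration and in arteries, spread widely among wildtype embryos. Its brightest probe set read 8.34, 8.60, 8.49, 8.54 and 7.80 in null arrays, against 8.70, 8.85, 8.49, 7.45 and 7.56 in wildtype arrays. Wildtype replicates 4 and 5 lay below all null arrays and wildtype replicates 1 and 2 above all of them. The SD was 0.33 in null and 0.66 in wildtype arrays (n = 5 each), and the log2 fold change was 0.15 (95% interval -0.46 to 0.75, limma adjusted p = 0.880). Without wildtype replicate 4 it was -0.04, and without replicates 1 and 2 it was 0.52 (limma adjusted p = 0.50).

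Efnb2 had a further probe set over the filter, which read 8.00, 7.29, 7.53, 7.54 and 6.90 in null arrays, against 7.61, 7.10, 7.15, 5.74 and 6.11 in wildtype arrays. On it, too, wildtype replicates 4 and 5 were the lowest arrays, but wildtype replicates 2 and 3 now lay below all null arrays except replicate 8. The log2 fold change was 0.71 (95% interval -0.004 to 1.43, limma adjusted p = 0.405). Without wildtype replicate 4 it was 0.46 (limma adjusted p = 0.599), without wildtype replicates 1 and 2 it was 1.12 (limma adjusted p = 0.274), and over all alternatives it lay between 0.31 and 1.28.

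Robo1, a Slit receptor on hindbrain axons, was low on the same arrays as Efnb2. Robo1 had 9.58, 9.10, 8.96, 9.28 and 8.19 in null arrays, against 9.11, 9.07, 9.23, 8.58 and 8.12 in wildtype arrays. Its 3 lowest values came from wildtype replicate 5, null replicate 8 and wildtype replicate 4, which were also the 3 lowest arrays for Efnb2. This was not particular to the pair. The same arrays were lowest for the effector gene Trio (8.31 in null replicate 8, 7.79 and 8.28 in wildtype replicates 4 and 5). They were also lowest for the neuronal marker Isl1 (10.15, 9.81 and 10.01). Both genes were read there on their brightest probe sets, and a further probe set over the filter of each did not share the pattern. On these the same arrays read 4.62, 4.91 and 4.49 for Trio and 7.23, 7.03 and 7.33 for Isl1, and none was among the 3 lowest. The share of all genes with this pattern was not counted. Deviations of Efnb2 from its mean over all arrays were -0.48 in null replicate 8 and -0.83 and -0.72 in wildtype replicates 4 and 5. The log2 fold change of Robo1 was 0.20 (95% interval -0.38 to 0.78, limma adjusted p = 0.816), and it was -0.02 with the actin covariate, 0.03 without wildtype replicate 5 and 0.41 without null replicate 8. Beside these values, the mean deviation of 14 neuronal markers was -0.308 in null replicate 8, -0.651 in wildtype replicate 4 and 0.010 in wildtype replicate 5. Their part in the shared low values was not tested.

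The 250 bases before the RefSeq start of these genes (GRCm38.p6, Efnb2 at chr8:8661243-8661492 on the minus strand and Robo1 at chr16:72662899-72663148 on the plus strand) are shown because the genes were low on the same embryos. Capitals mark the letters TATAAA of the TATA box, the letters CCAAT of the CAAT box and the letters GGGCGG of the GC box, searched on either strand, with neighbouring matches not overlapping.
Efnb2: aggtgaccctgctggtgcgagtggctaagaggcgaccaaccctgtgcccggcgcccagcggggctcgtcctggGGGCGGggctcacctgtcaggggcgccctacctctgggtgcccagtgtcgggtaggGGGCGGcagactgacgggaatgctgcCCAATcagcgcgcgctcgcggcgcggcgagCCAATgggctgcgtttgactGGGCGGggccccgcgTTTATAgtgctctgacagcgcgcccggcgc
Robo1: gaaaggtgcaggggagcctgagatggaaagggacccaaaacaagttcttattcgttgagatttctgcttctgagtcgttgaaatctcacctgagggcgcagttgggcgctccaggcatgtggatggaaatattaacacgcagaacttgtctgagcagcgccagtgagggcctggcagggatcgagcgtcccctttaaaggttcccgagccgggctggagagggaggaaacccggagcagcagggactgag
The Efnb2 window held 1 TATAAA (read as its complement), 2 CCAAT and 3 GGGCGG matches at a GC content of 72%. Robo1 held 0 of any of these at 56%, against a median of 52.4% over all promoters. Over 32851 promoter windows of the same length, TATAAA occurred in 12.4%, CCAAT in 33.8% and GGGCGG in 32.7%. The matches describe the letters of these windows only.

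**Figure D2:**
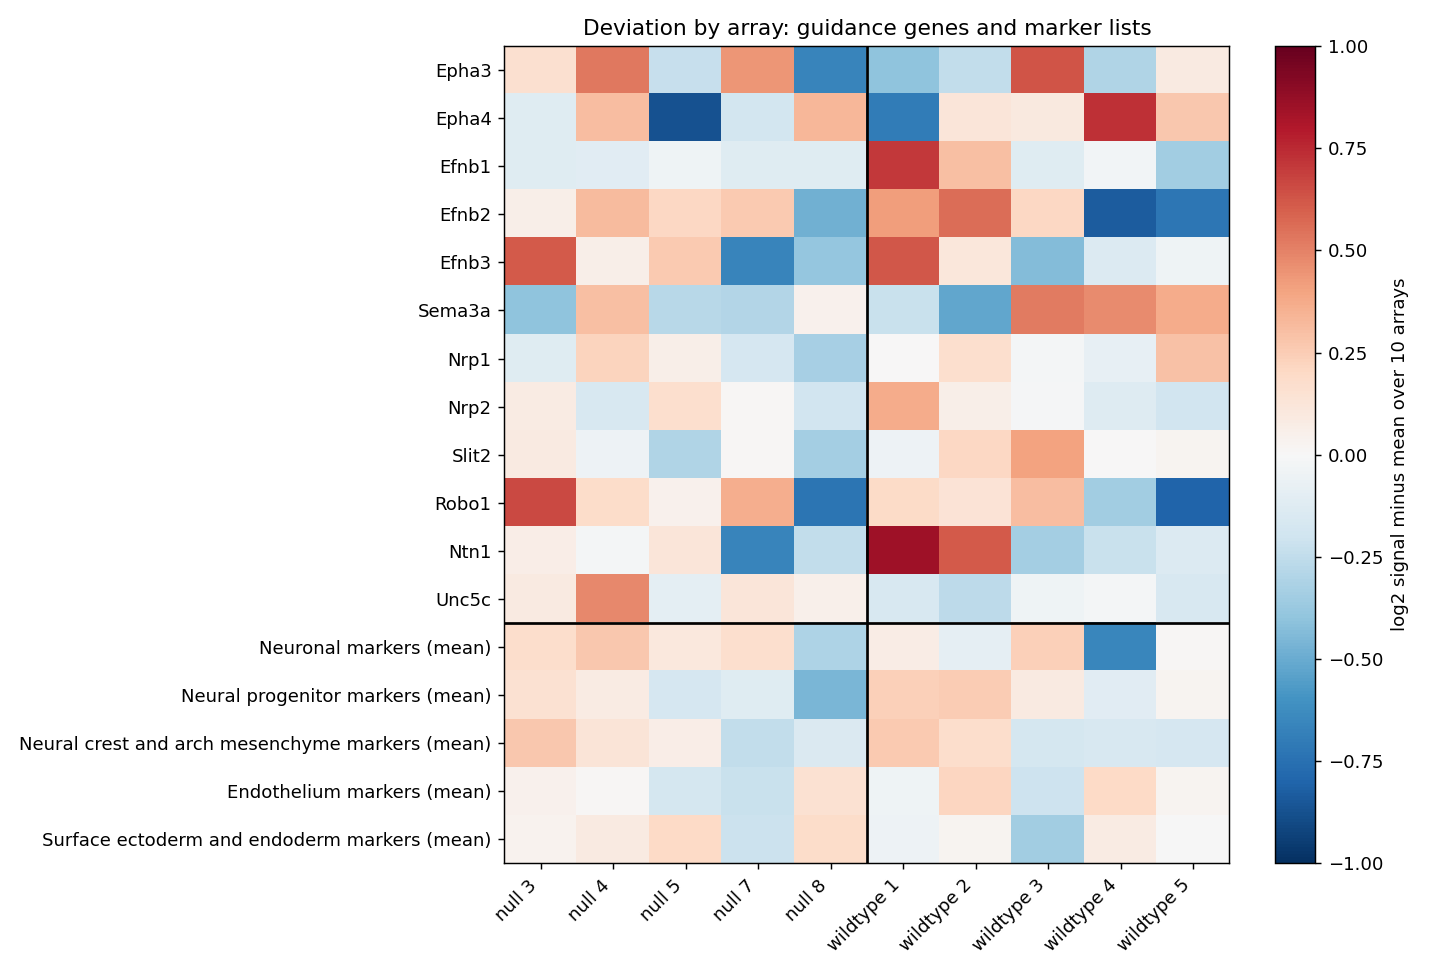
Deviation of each array (columns, null left and wildtype right) from the mean over all 10 arrays, in log2 units, for the 12 guidance genes over the filter and for the mean of 5 marker lists. Null replicate 8 and wildtype replicates 4 and 5 are low for Efnb2 and Robo1, and wildtype replicates 1 and 2 are high for Ntn1.

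Among semaphorins, plexins and neuropilins, Sema3a, Nrp1 and Nrp2 passed the filter. Sema3a, a secreted repellent of cranial axons and crest, had 6.37, 7.07, 6.50, 6.48 and 6.81 in null arrays, against 6.55, 6.25, 7.29, 7.24 and 7.15 in wildtype arrays. Wildtype replicate 1 lay among the null arrays, replicate 2 below all of them and the other 3 wildtype arrays above all of them. The log2 fold change was -0.25 (95% interval -0.72 to 0.22, limma adjusted p = 0.692). It was -0.58 without wildtype replicates 1 and 2 (limma adjusted p = 0.302), -0.15 without wildtype replicate 3 and -0.04 with array weights. The 2 dimmer Sema3a probe sets were under the filter and had log2 fold changes of 0.25 and 0.13.

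Nrp1, the co-receptor of Sema3a and of VEGF, had 8.86, 9.20, 9.04, 8.81 and 8.65 in null arrays, against 8.98, 9.15, 8.96, 8.90 and 9.27 in wildtype arrays. The groups overlapped over most of their range, and the log2 fold change was -0.14 (95% interval -0.43 to 0.15, limma adjusted p = 0.725). Its further probe sets had -0.11 and -0.20. Nrp2, the co-receptor of Sema3f, had 6.47, 6.23, 6.56, 6.40 and 6.20 in null arrays, against 6.76, 6.46, 6.39, 6.26 and 6.20 in wildtype arrays. Only wildtype replicate 1 lay above the null arrays, and the log2 fold change was -0.04 (95% interval -0.33 to 0.25, limma adjusted p = 0.942).

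Slit2, a ligand of Robo1 made at the ventral midline, had the smallest p of its family. Its values were 9.91, 9.77, 9.52, 9.83 and 9.48 in null arrays, against 9.77, 10.03, 10.22, 9.82 and 9.85 in wildtype arrays. Null replicates 5 and 8 lay clearly below every wildtype array and wildtype replicates 2 and 3 above every null array, with the rest close together. The log2 fold change was -0.24 (95% interval -0.53 to 0.06, limma adjusted p = 0.520). Over all alternatives it stayed between -0.29 and -0.17, with adjusted p from 0.442 to 0.759.

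Ntn1, the floor plate attractant netrin-1, had 4.24, 4.15, 4.29, 3.51 and 3.92 in null arrays, against 5.02, 4.78, 3.83, 3.95 and 4.02 in wildtype arrays. Wildtype replicates 1 and 2 lay above all null arrays and the other 3 wildtype arrays among them. The log2 fold change was -0.30 (95% interval -0.83 to 0.23, limma adjusted p = 0.672). It lay between -0.42 and -0.12 with single arrays left out, and was 0.09 without both wildtype replicates 1 and 2. The dim Plxnb2 probe set, of a plexin that binds class 4 semaphorins, showed the same split, with 2.99, 3.95, 3.95, 3.55 and 4.20 in null arrays, against 5.14, 5.09, 3.75, 3.90 and 3.99 in wildtype arrays. Its log2 fold change was -0.65 (95% interval -1.46 to 0.16, limma adjusted p = 0.780) and, from group means, -0.15 without wildtype replicates 1 and 2. Plxnb2 lies on chromosome 15, which also carries Fbln1. In all, wildtype replicates 1 and 2 both lay above the other wildtype arrays for 5 of the 12 members over the filter and both below for 2, Sema3a and Unc5c.

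Unc5c, the repulsive netrin receptor, had the smallest p of the members over the filter, and its probe sets pointed opposite ways. The brightest read 8.09, 8.48, 7.90, 8.11 and 8.05 in null arrays, against 7.84, 7.74, 7.95, 7.97 and 7.84 in wildtype arrays. All null arrays but replicate 5 exceeded every wildtype array, and the log2 fold change was 0.26 (95% interval -0.02 to 0.53, limma adjusted p = 0.441). The further probe set read 3.47, 4.59, 4.14, 3.96 and 4.35 in null arrays, against 4.73, 4.73, 5.13, 3.66 and 4.81 in wildtype arrays. There, 4 of 5 wildtype arrays lay above every null array and wildtype replicate 4 below all but 1, with a log2 fold change of -0.51 (95% interval -1.09 to 0.07, limma adjusted p = 0.473). With the mean of both probe sets the log2 fold change of Unc5c was -0.12.

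The disagreement between probe sets of one gene was tested as the further probe set minus the brightest on each array, for the 5 further probe sets of Efnb1, Efnb2, Nrp1 and Unc5c. This comparison was chosen after the values were seen. For Unc5c the difference was -4.02 ± 0.37 in null and -3.26 ± 0.60 in wildtype arrays (SD, n = 5 each), a change of -0.76 (two-sided exact permutation p = 0.0397, adjusted over the 5 pairs 0.0992). Without wildtype replicate 4 the change was -1.03 (exact permutation p = 0.00794, the smallest the arrays then allow, adjusted 0.0397). This array's value of the further probe set lay far from those of the other wildtype arrays. Leaving it out separates the genotypes fully, so this p follows from the choice of array and adds no support. Over all 12 alternatives run the change lay between -1.03 and -0.62, with adjusted p from 0.0397 to 0.446, and the unadjusted exact permutation p was under 0.05 in 3 of them. For Efnb2 it was -0.90 ± 0.35 in null and -1.47 ± 0.27 in wildtype arrays (SD, n = 5 each), a change of 0.57 (exact permutation p = 0.0159, adjusted 0.0794). Over the same 12 alternatives the Efnb2 change lay between 0.43 and 0.67, with adjusted p from 0.0794 to 0.268. Its unadjusted exact permutation p was under 0.05 in 11 of them, which share most arrays and are not independent. The other 3 pairs, of Efnb1 and Nrp1, had exact permutation p of 0.206 to 0.881. No pair passed after adjustment with all 10 arrays. The tests between probe sets were not run with the actin covariate.

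**Figure D3:**
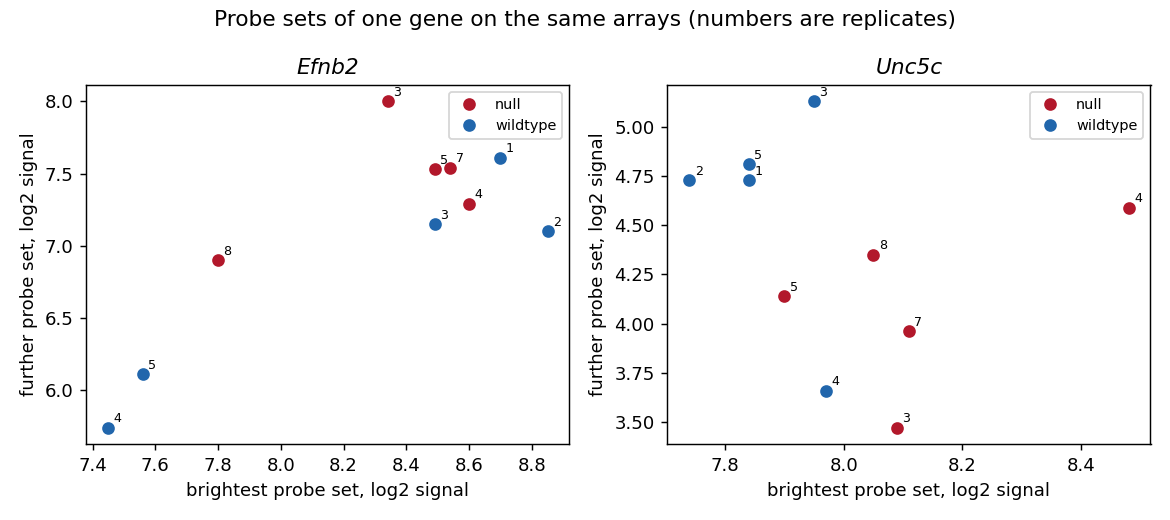
Log2 signal of the brightest (x axis) and the further (y axis) probe set of Efnb2 and Unc5c on each null (red) and wildtype (blue) array, with replicate numbers. For Efnb2 the null arrays lie toward higher values of the further probe set, and for Unc5c all of them lie below 4 of the 5 wildtype arrays, with null replicates 3, 4, 7 and 8 also to the right of every wildtype array.

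**Figure D4:**
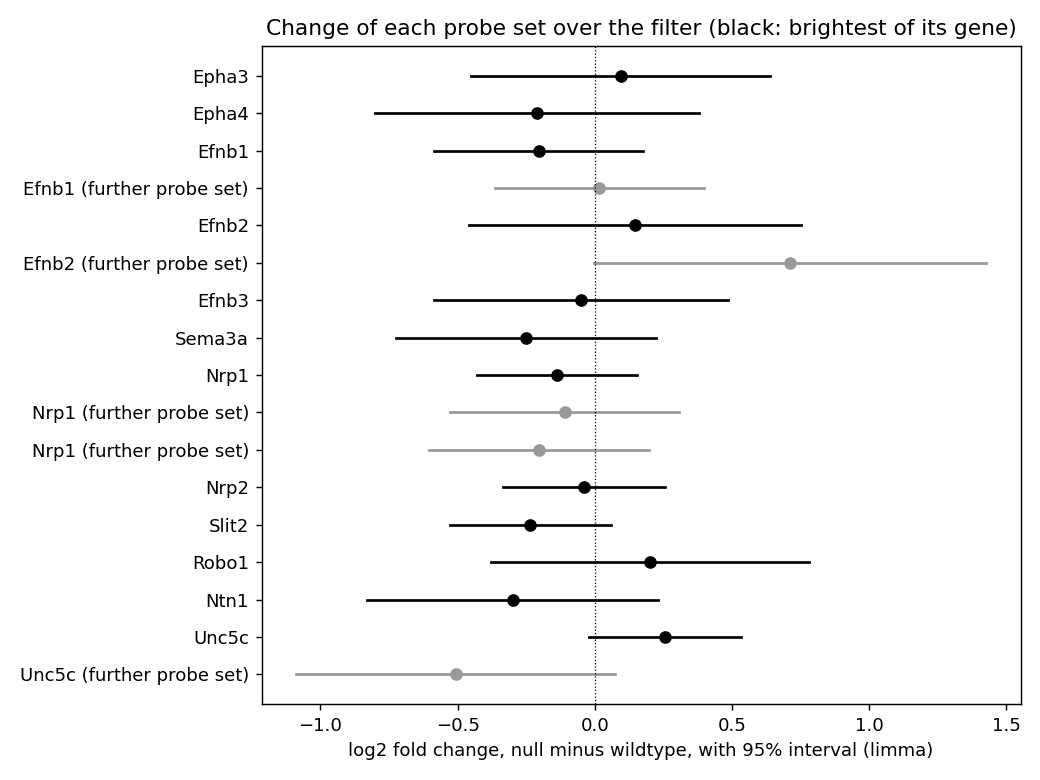
Log2 fold change (x axis, null minus wildtype) with 95% limma interval for the 12 brightest and 5 further probe sets of guidance genes over the filter, the brightest of each gene in black and further ones in grey. Every interval includes 0, the nearest being that of the further Efnb2 probe set (-0.004 to 1.43).

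For the remaining 23 members the signal lay under the filter, and 19 of them exceeded log2 4 on no array. In the fit over all 22626 probe sets, 0 of the 23 brightest sets had an unadjusted limma p under 0.05 (7.11% of all probe sets did). Genotypes did not overlap for 0 of the 23 (1.83% of all probe sets). Those shares take in bright probe sets too, and the share among dim ones was not counted. For 10 of the 23 members all arrays lay within 0.5 log2 units. Slit1, a Slit of the neural tube, read 2.27 on all 10 arrays, Ephb6, a kinase-dead Eph receptor, within 2.26 to 2.27, and Plxnd1, the endothelial receptor of Sema3e, within 2.53 to 2.73. At such levels a change could not be measured, and a gene at the floor cannot be called silent. Dcc, the attractive netrin receptor, lay within 2.61 to 3.29.

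Efna2, a lipid-anchored A-type ephrin, was the dim member with the smallest p, followed by Sema3e. It read 4.28, 3.45, 3.54, 3.11 and 3.70 in null arrays, against 3.87, 4.10, 4.36, 3.83 and 4.34 in wildtype arrays. All null arrays except replicate 3 lay below every wildtype array, and the log2 fold change was -0.48 (95% interval -0.97 to 0.003, limma adjusted p = 0.704). Epha7, the Eph receptor with the smallest p, had 3.30, 2.99, 3.35, 3.59 and 2.91 in null arrays, against 3.49, 3.97, 3.73, 3.38 and 3.34 in wildtype arrays. The ranges overlapped, and the log2 fold change was -0.35 (limma adjusted p = 0.741). Sema3e, a repellent of blood vessels through Plxnd1, had 2.65, 2.84, 2.65, 3.36 and 2.88 in null arrays, against 2.65, 2.63, 2.63, 2.27 and 2.62 in wildtype arrays, all near the floor. No null array lay below 2.65, and the log2 fold change was 0.32 (limma adjusted p = 0.729). A dimmer Sema3e probe set, also near the floor, read 2.34 to 3.57 in null and 2.30 to 2.33 in wildtype arrays. Genotypes did not overlap on it, as for 1.83% of all probe sets (log2 fold change 0.48, limma adjusted p = 0.777). Another Sema3e probe set had a log2 fold change of 0.11, with overlap.

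**Figure D5:**
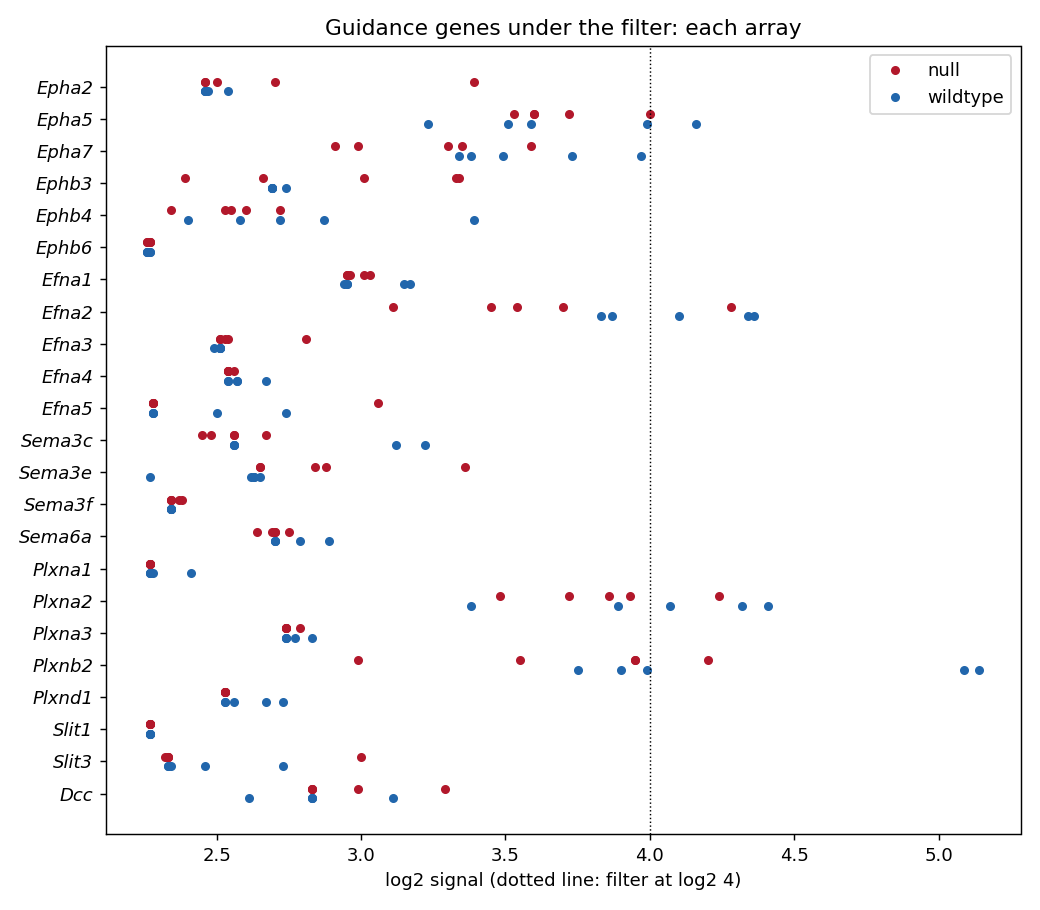
Log2 signal (x axis) of the 23 guidance genes under the filter on each null (red, upper) and wildtype (blue, lower) array. The dotted line marks log2 4, which 4 of them (Epha5, Efna2, Plxna2 and Plxnb2) exceeded on at least 1 array.

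Other genes of these pathways were read from a list of 87, of which 69 had a probe set and 36 passed the filter. Of the 36, 0 passed an adjusted limma p of 0.05, where 0.0338% of all genes did. At an unadjusted p under 0.05 there were 1 higher and 3 lower on their brightest probe sets, beside 3.84% of all genes higher and 9% lower, so that 4 of 36 lay near the 12.8% of all genes in either direction. Semaphorins outside the list had 3 measured genes, with Sema4b, a transmembrane semaphorin, at a log2 fold change of 0.61 (limma adjusted p = 0.318). Sema4b read 6.02, 5.44, 5.53, 5.37 and 5.68 in null arrays, against 5.71, 5.37, 4.62, 4.56 and 4.75 in wildtype arrays, so that wildtype replicates 1 and 2 lay among the null arrays and the others below them. Sema4d had -0.27 and Sema6b 0.02. In the netrin and Slit families 2 genes were measured, Neo1, a receptor of netrin and of repulsive guidance molecules, at 0.07 and Ntng1, a netrin-G, at -0.03. No remaining Eph receptor or plexin of the list was over the filter.

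Cytoplasmic effectors of guidance receptors gave 31 measured genes, 24 of them (77.4%) with lower means, beside 56.9% of all genes. The median log2 fold change was -0.08, against -0.04 over all genes, and 0 passed the adjusted threshold, beside 0.0338% of all genes. Dpysl5, a collapsin response mediator protein that acts downstream of semaphorins, read 5.37, 5.06, 4.60, 4.35 and 5.19 in null arrays, against 6.14, 6.23, 4.97, 5.78 and 5.48 in wildtype arrays. All wildtype arrays but replicate 3 exceeded every null array, and the log2 fold change was -0.81 (95% interval -1.37 to -0.25, limma adjusted p = 0.270). Tiam1, an exchange factor of Rac, had -0.45 (limma adjusted p = 0.346), and Enah, an actin regulator that acts with Robo and Dcc, had -0.31 on its brightest probe set (limma adjusted p = 0.379). The further Enah probe sets over the filter disagreed, with -0.35 and -0.06 on a pair of them and 0.47 on another (limma adjusted p = 0.332). Mean deviations of this list were highest in wildtype replicates 1 and 2 (0.299 and 0.246) and in null replicate 3 (0.260).

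Array by array, marker lists of the cell types that carry these genes overlapped between genotypes. Their median log2 fold change was -0.21 for neural progenitor markers (8 of 12 lower) and 0.11 for neuronal markers (11 of 14 higher). It was 0.03 for crest and arch mesenchyme markers (6 of 11 higher), against -0.04 over all genes. At an unadjusted limma p under 0.05, 2 progenitor and 2 crest markers were lower and 2 neuronal markers higher, beside 9% of all genes lower and 3.84% higher. In these lists 0 passed the adjusted threshold, beside 0.0338% of all genes. The mean deviation of the 12 neural progenitor markers was -0.454 to 0.155 in null and -0.111 to 0.254 in wildtype arrays. That of 11 crest and arch mesenchyme markers was -0.246 to 0.266 in null and -0.179 to 0.259 in wildtype arrays, and that of 14 neuronal markers was -0.308 to 0.269 in null and -0.651 to 0.242 in wildtype arrays. Summed signals (log2) of the progenitor list lay at 13.1 to 13.5 in null and 13.2 to 13.5 in wildtype arrays, and those of the neuronal list at 12.6 to 13.2 in null and 12.3 to 13.2 in wildtype arrays. Such sums mostly follow the brightest probe sets, such as Vim in the progenitor list (12.3 to 12.7 over all arrays), and say little of the dimmer markers. Among endothelial markers, 5 of 14 passed the filter, and Pecam1 and Cdh5 did not. The part of cell composition in the fold changes was not tested.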

How the data were processed

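The authors deposited log2 expression values, 1 per probe set and array, and the submitters' processing notes name GCRMA, whose version is not given in the sources used here. Labelling used a 3' IVT kit, per the labels' protocols. GCRMA corrects background from probe sequence and normalizes across arrays, and it compresses changes of dim probe sets. Of 22690 probe sets 64 controls were left out, and 20380 of the rest had 1 gene symbol in the platform annotation. Probe sets over log2 4 on at least 5 of 10 arrays were fitted with limma 3.58.1 in R 4.3.3 (lmFit, eBayes, genotype alone, two-sided) with Benjamini-Hochberg adjustment over 9801 probe sets, and members under the filter in a fit over all 22626. Single values per array were compared by exact permutation over 252 assignments. The fit was tested on simulated data. Other scalings, filters and floors, a trended variance, weights for arrays, a replicate block, sex and actin covariates and left-out arrays were tried as alternatives. The members, the lists and the pair of wildtype arrays left out together were chosen with earlier results of these data known. By rule, array values were given for members with the smallest p in each family. Those of the other members over the filter and of Plxnb2, Sema4b and Dpysl5 were chosen after values were seen. So were the tests between probe sets and the pairing of Efnb2 with Robo1, with their promoters. Sequences are from RefSeq (33 of 40 members matched). Since littermates are not identified, the tests reflect only the spread among these embryos. Replicate numbers 3, 4 and 5 occur in both genotypes, but nothing ties them to shared litters.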

Additional observations from a re-analysis of the deposited data

Results flagged for a closer look

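In 4 of 46 groups of 5 arrays, 1 value lay far from the others, with a gap to its neighbour of over 0.71 of the group's range, which chance alone gives for about 1 group in 20. The brightest Efnb1 probe set read 5.09 in null replicate 5, where the other null arrays read 5.01 to 5.02. The SD of these null arrays was 0.035 log2 units, so that gap was small in size. A further Nrp1 probe set read 4.37 in null replicate 7, against 4.96 to 5.05 in the other null arrays. The further Unc5c probe set read 3.66 in wildtype replicate 4, against 4.73 to 5.13 in the other wildtype arrays. Sema3e read 2.27 in wildtype replicate 4, near the floor, against 2.62 to 2.65 in the other wildtype arrays.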

How the results depend on the processing

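The count of guidance genes past an adjusted limma p of 0.05 stayed at 0 under every alternative run, and the lowest adjusted p of any of their probe sets over the filter was 0.226. At an unadjusted p of 0.05 the count was 0 as reported, 1 with quantile normalization, without a filter, with array weights or without wildtype replicates 1 and 2 together, 2 with the actin covariate and 3 with the replicate block, and 0 to 1 with single arrays left out. The number of probe sets past the threshold over the whole array was 2 as reported, 1 without a filter, 34 with a log2 6 filter or array weights, 8 with a trended robust variance, 46 at an adjusted p of 0.1, 0 with the block, the sex or the actin covariate or without wildtype replicates 1 and 2 together, and 0 to 7 with single arrays left out. The causes were not tested. In the block fit only replicates 3, 4 and 5, whose numbers occur in both genotypes, bear on the fold changes. The median log2 fold change of the members, -0.09, was 0.076 without wildtype replicates 1 and 2 together and 0.11 with the replicate block, and -0.16 to -0.02 with single arrays left out. Deviations of arrays with the same number correlated at -0.191, -0.343 and 0.158 for numbers 3, 4 and 5. So few values cannot tell whether arrays of 1 number shared a litter or a batch.

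Of 362 fold changes recomputed, 328 kept their sign. The others all had an adjusted p above 0.3. The sex covariate marked wildtype replicate 4 alone, so its fold changes equal those without that array and enter these counts again. Signs turned with the block for Efnb1 (0.077), Efnb3 (0.51), Nrp2 (0.14), Ntn1 (0.29) and a further Nrp1 probe set (0.15). Without wildtype replicates 1 and 2 together they turned for Epha3 (-0.091), Efnb1 (0.064), Efnb3 (0.18), Nrp2 (0.091), Ntn1 (0.087) and the same Nrp1 probe set (0.0076). With the actin covariate they turned for Epha4 (0.22), Efnb2 (-0.15) and Robo1 (-0.017), with the sex covariate for Efnb2 (-0.043) and the further Efnb1 probe set (-0.011), with array weights for that Efnb1 probe set (-0.029), with a floor at log2 4 for Efnb3 (0.046), with quantile normalization for Nrp2 (0.010) and with the mean of probe sets for Unc5c (-0.12). With single arrays left out the log2 fold change lay at -0.026 to 0.27 for Epha3, -0.043 to 0.31 for Efnb2, -0.21 to 0.11 for Efnb3, -0.093 to 0.047 for Nrp2 and -0.072 to 0.12 for the further Efnb1 probe set. The changes between probe sets lay at -0.11 to 0.16 and -0.15 to 0.033 for the Nrp1 pairs and -1.03 to -0.62 for Unc5c. For Efnb1 they lay at 0.13 to 0.33 and for Efnb2 at 0.43 to 0.67. These runs of changes between probe sets were made after seeing the data. Dim probe sets limit what could be measured for 23 members.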
